A study of Mus musculus with 2 samples.

Results

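The genes described here encode the proteins that carry glucose into the muscle fibre, break it down to lactate, and store and release it as glycogen. They were taken by name from a list of 38 gene symbols, with no threshold on their values. Of these 38 genes, 35 were found among the 19938 genes that had a probe set of their own on the array. Gpi1, Pfkfb1 and Eno1 were not analysed here.

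RNA was measured in tibialis anterior muscle, a muscle of the shin, of mice of the mixed strain 129Sv/C57BL6, aged 2 to 4 months and of both sexes. The first pool was labelled Mef2a -/- (Mef2a knockout) and the second Mef2a +/+ (wild type), and each combined RNA of 5 mice on 1 array. Both pools came from muscle injected with 50 µl of 10 µM cardiotoxin, a snake venom peptide that destroys fibres, and taken 7 days later, so that both hold regenerating fibres along with inflammatory cells, and no uninjured muscle was analysed here. The comparison asks which transcripts differ in regenerating muscle when MEF2A, a transcription factor of muscle genes, is absent. Since each genotype is 1 pool on 1 array, no value has a replicate error and no test or p-value is given. The deleted part of the gene is not named in the labels, nor are the cells that lack it.

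Glycolysis turns glucose into pyruvate and lactate and yields ATP without oxygen, and fast skeletal muscle depends on it during short bursts of work. Fibres store glucose as glycogen, which glycogen phosphorylase breaks down when phosphorylase kinase senses calcium released for contraction. Many of these steps are served by several genes. The form classed here as muscle is used in mature fibres, and the class does not mean that other cells lack it. The other forms are used in most tissues, in brain, liver or blood cells, or in young muscle. Some of these other forms, Ldhb and Ppp1r3c, are found in muscle as well. MEF2 factors are known to drive several of the muscle forms, Slc2a4 and Pgam2 among them.

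Values are log2 signals. The table's values ran from 0.13 to 13.17 in the labelled knockout pool and from 0.14 to 13.08 in the wild type pool. The Mef2a probe set read 9.06 in the labelled knockout pool and 8.92 in the wild type pool, so the transcript gives no check of the genotype labels, since its probes may lie outside what was deleted. A gene was counted when its higher value reached 4.39, the median of the table, as 11787 genes did, and all 35 members were among them. Over these 11787 genes the difference, labelled knockout minus wild type, had a median of 0.03 and a robust SD of 0.28. This SD is a spread between genes of all signal strengths and not a replicate error. Skeletal muscle fibre markers were present in both pools: all 20 markers tested lay above the floor, between 8.26 and 12.52 in the labelled knockout pool and between 8.76 and 12.56 in the wild type pool.

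As a set, the 35 members differed little at the middle and widely at the edges. Their median difference was -0.18 on the log2 scale, against 0.03 over the 11787 genes. In the labelled knockout pool, 6 of the 35 (17.1%) were lower by 1.5-fold or more, a limit that 1.90% of all genes passed, and 5 (14.3%) were at least 1.5-fold higher, against 6.45% of all genes. The higher count was 3 when differences were centred on the median of all genes, had a loess trend removed or met a floor at the 75th percentile, and 4 without Aldoc, which passed the floor only through the labelled knockout pool. The share of all genes was not counted under these settings, so whether the higher count still exceeds it is not known. With the floor set on the mean of both pools, added after the data were seen, the counts were again 6 lower and 5 higher, against 1.71% and 6.34% of 11443 genes. In all, 23 members were lower by any amount and 12 were higher, where 44.5% and 53.3% of all genes were. The 6 lower genes were Fbp2, Ppp1r3c, Hk2, Phkg1, Phka1 and Slc2a4, and the 5 higher genes were Hk3, Pgam1, Aldoc, Pfkl and Pygl. The glycogen genes had a median of -0.43 (13 genes, 11 lower), the genes of glycolysis and its branches one of -0.11 (19 genes, 11 lower), and the 3 glucose transporters one of 0.21.

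**Figure D1:**
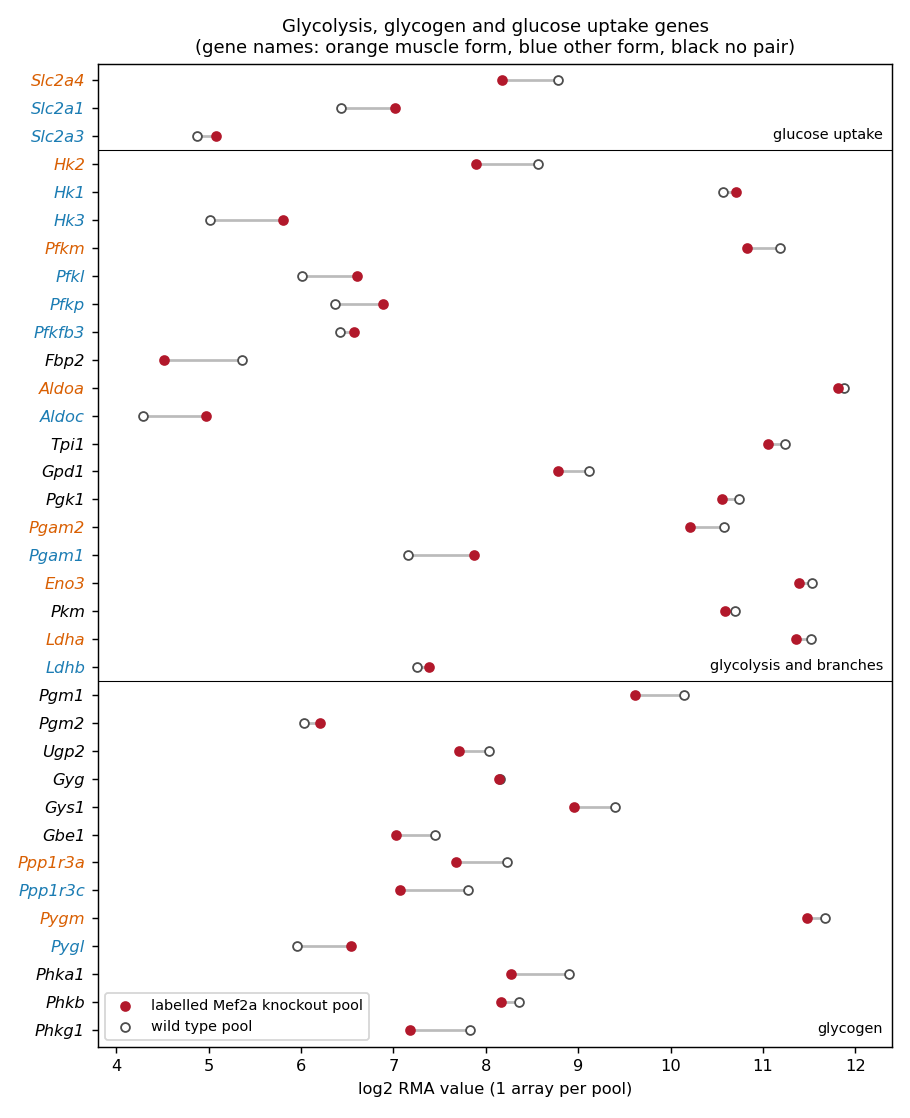
Log2 RMA value of each of the 35 member genes in the labelled Mef2a knockout pool (filled red points) and the wild type pool (open points), 1 array each, with genes in pathway order from top to bottom. Orange names, the muscle forms, have the red point on the left, while blue names, the other forms, have it on the right except for Ppp1r3c.

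The division followed the kind of isoform. Of 10 muscle forms 9 were found, and all 9 were lower in the labelled knockout pool, with a median of -0.36 and a range from -0.68 to -0.07. Of 13 other forms 12 were found, and 11 of them were higher, with a median of 0.55 and a range from -0.73 to 0.79. These figures depend on which forms were listed, a choice made with earlier results of these data known. Further forms of the same enzymes, at or above the floor but left out of the classes, were mixed. They differed as follows: Slc2a8 0.03, Slc2a12 -0.62, Pfkfb2 -0.02, Pfkfb4 0.53, Eno2 0.59, Pygb -0.02, Ppp1r3d -0.41 and Ppp1r3e -0.29. Both forms were found in 8 enzyme families, which gave 11 pairs of a muscle form and another form. In 10 of these 11 pairs the muscle form was lower and the other form higher, and the difference of the muscle form minus that of the other form had a median of -0.82, with a range from -1.47 for Hk2 and Hk3 to 0.18 for Ppp1r3a and Ppp1r3c. Hk1 and Ldhb have a further probe set each, at -0.01 and 0.00, under which these 2 are not higher and their pairs leave the 10. Aldoc, in a further pair of the 10, reached the floor only through the labelled knockout pool, where it is high. Slc2a4, Hk2 and Pfkm are each used in several pairs, so the 11 pairs are not independent.

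**Figure D2:**
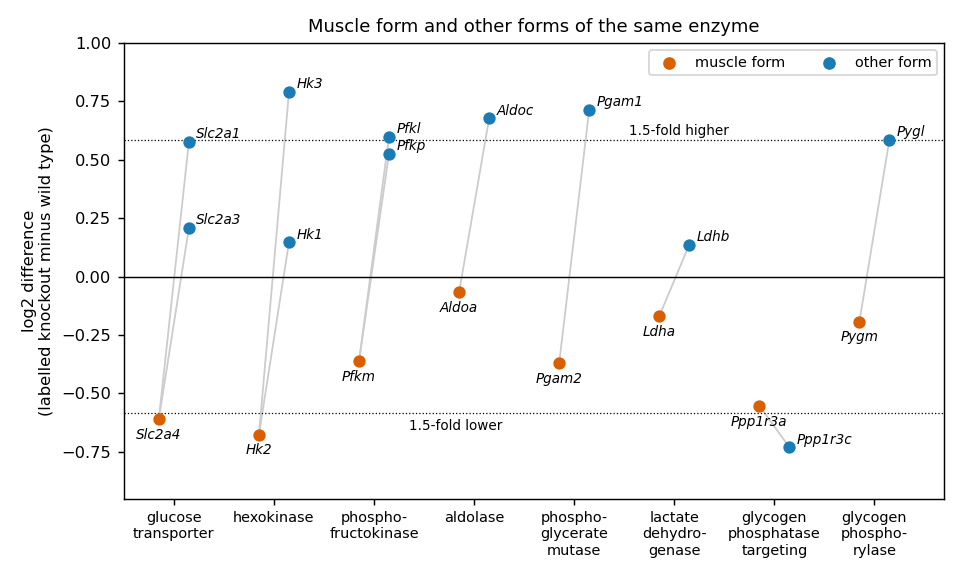
Log2 difference, labelled knockout minus wild type, of the muscle form (orange) and the other forms (blue) in 8 enzyme families, with grey lines joining the pairs and dotted lines at 1.5-fold. Every orange point lies below 0, and every blue point lies above 0 except Ppp1r3c at -0.73.

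Other cell types of the injured muscle moved in the same RNA. All 20 macrophage and monocyte markers were higher in the labelled knockout pool, where 53.3% of all genes were, with a median difference of 1.02. Of these markers, 18 were at least 1.5-fold higher (90%, against 6.45% of all genes). Their summed signal was 13.81 log2 units in the labelled knockout pool and 12.60 in the wild type pool, and no marker lay below the floor in either pool, the lowest being Fcgr1 at 6.16 in the labelled knockout pool and Cd14 at 4.90 in the wild type pool. All 20 fibre markers were lower, where 44.5% of all genes were, with a median of -0.19. Of these, 1 was at least 1.5-fold lower (5%, against 1.90% of all genes). Their summed signal was 15.50 in the labelled knockout pool and 15.69 in the wild type pool. In bulk RNA, fewer cells of a type and less RNA per cell cannot be told apart. The part of these cell types in the isoform differences was not tested. Fibroblast markers had a median of 0.12 (9 genes) and endothelial markers one of -0.02 (8 genes). Each had 1 gene at least 1.5-fold higher, Thy1 (11.1%) and Vwf (12.5%), against 6.45% of all genes, and none lower. In lists this short, 1 call cannot be told apart from the share over all genes. The 7 markers of young regenerating fibres had a median of 0.15 but were divided, with Myh8, the neonatal myosin, 1.54-fold lower, Myh3, the embryonic myosin, at -0.44, and 4 others slightly higher. Of 10 neutrophil markers, 9 lay below the floor in both pools. The 7 adipocyte markers had a median of -0.04, and 2 of the 3 erythroid markers found were below the floor.

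Glucose enters cells through transporters of the SLC2A (GLUT) family. Slc2a4 encodes GLUT4, the transporter that insulin and contraction bring to the surface of the fibre. It read 8.17 in the labelled knockout pool and 8.78 in the wild type pool, which is 1.52-fold lower. Slc2a1 encodes GLUT1, which supplies basal glucose to most cells, and it read 7.01 in the labelled knockout pool and 6.44 in the wild type pool, 1.49-fold higher and thus just short of the 1.5-fold limit. Slc2a3 encodes GLUT3, a transporter of neurons and white blood cells, and read 5.08 in the labelled knockout pool, beside 4.87 in the wild type pool, a difference of 0.21, smaller than the robust SD of 0.28 over all genes. The insulin-dependent transporter and the basal one thus differed in opposite directions, and the ratio of Slc2a4 to Slc2a1 was 2.27-fold lower in the labelled knockout pool.

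Hexokinases trap glucose in the cell by adding a phosphate, and this family had the widest gap between forms. Hk2, the insulin-regulated form of muscle, read 7.89 in the labelled knockout pool and 8.57 in the wild type pool, 1.60-fold lower. Hk3, a form of myeloid cells, read 5.81 in the labelled knockout pool and 5.02 in the wild type pool, 1.73-fold higher and the largest difference among the higher members. Hk1, the form of brain and red blood cells, is uncertain. Its brighter probe set read 10.71 in the labelled knockout pool and 10.56 in the wild type pool, but the 1 sequence record behind it is also listed for all 16 probe sets that the annotation gives to Hk1 together with Rpl17, a ribosomal protein gene, so this signal may not be that of Hk1. The other Hk1 probe set, which carries the RefSeq transcripts, read 6.50 in either pool, with a difference of -0.01.

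Phosphofructokinase commits sugar to glycolysis. Pfkm, the muscle subunit, read 10.82 in the labelled knockout pool, beside 11.18 in the wild type pool, a difference of -0.36. Pfkl, the liver subunit, read 6.60 in the labelled knockout pool and 6.01 in the wild type pool, 1.51-fold higher, and Pfkp, the platelet subunit, read 6.89 in the labelled knockout pool and 6.37 in the wild type pool, a difference of 0.53. Both non-muscle subunits were therefore higher while the muscle subunit was lower, though the call for Pfkl at 1.5-fold is lost when differences are centred on the median of all genes (0.57). Pfkfb3 makes the sugar bisphosphate that switches phosphofructokinase on, and its 6.58 in the labelled knockout pool and 6.42 in the wild type pool differed by 0.16. Fbp2, the fructose bisphosphatase of muscle, runs the phosphofructokinase step backwards and takes part in making glycogen from lactate. It read 4.51 in the labelled knockout pool and 5.36 in the wild type pool. This 1.80-fold lower value was the largest difference of any member, the 45th lowest of 11787 genes, although its reading in the labelled knockout pool lies close to the floor.

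The middle of the pathway splits a sugar bisphosphate into trioses. Aldoa, the aldolase of muscle, hardly differed, at 11.81 in the labelled knockout pool and 11.87 in the wild type pool. Aldoc, the aldolase of brain, read 4.97 in the labelled knockout pool and 4.29 in the wild type pool, a difference of 0.68. Its wild type value lies below the floor, so that it was counted only through its labelled knockout value and its fold is poorly bounded. Tpi1, which interconverts the trioses, read 11.05 in the labelled knockout pool and 11.24 in the wild type pool. Gpd1 draws a triose off to glycerol phosphate and so hands electrons to the mitochondrion, and it read 8.78 in the labelled knockout pool and 9.12 in the wild type pool, a difference of -0.34. No probe set belongs to Gapdh alone. The 25 that it shares with other annotated genes read between 11.61 and 12.57 in the labelled knockout pool and between 11.66 and 12.67 in the wild type pool, and all differed by -0.10 to -0.05.

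In the later steps of glycolysis, which return ATP, most genes had bright signals and were slightly lower. Pgk1, the first step to yield ATP, read 10.56 in the labelled knockout pool and 10.74 in the wild type pool, and its 3 probe sets differed by -0.18 to -0.17. Eno3, the muscle enolase, read 11.39 in the labelled knockout pool and 11.53 in the wild type pool, a difference of -0.14. Pkm, the pyruvate kinase of muscle and most other tissues, read 10.59 in the labelled knockout pool and 10.70 in the wild type pool, and its splice forms were not separated here. Ldha, the lactate dehydrogenase subunit of fast muscle, read 11.35 in the labelled knockout pool and 11.52 in the wild type pool, a difference of -0.17. All 4 differences were smaller in size than the robust SD of 0.28 over all genes. Ldhb, the subunit of heart and slow muscle, read 7.39 in the labelled knockout pool and 7.25 in the wild type pool on its brighter probe set, and exactly 6.60 in each pool on its other one. Such equal values were not rare, since 1961 of 35557 probe sets had the same value on both arrays.

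Phosphoglycerate mutase was the exception in this part of the pathway, with its muscle and non-muscle genes well apart. Pgam2, the muscle form, read 10.21 in the labelled knockout pool and 10.58 in the wild type pool, a difference of -0.37. Pgam1, the form of brain and most other tissues, read 7.88 in the labelled knockout pool, beside 7.16 in the wild type pool, 1.64-fold higher. Its other probe sets, which share their values, gave 0.76. The ratio of Pgam2 to Pgam1 was thus 2.12-fold lower in the labelled knockout pool.

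The 250 bases before the annotated start of these genes and of the glycogen targeting pair Ppp1r3a and Ppp1r3c are shown because Pgam2 and Ppp1r3a, both muscle forms, are the members with a match among those searched to the MEF2 consensus in this window. Capitals mark matches to the MEF2 consensus (searched by that name's usual 10-letter pattern) and to the core of the hypoxia response element, ACGTG or GCGTG, each on either strand, so that a match on the other strand reads CACGT or CACGC. Sequences are from RefSeq, build GRCm38.p6, written 5′ to 3′ on the strand of the gene. The windows are chr11:5803797-5804046, minus strand, for Pgam2, chr19:41911621-41911870, plus strand, for Pgam1, chr6:14755275-14755524, minus strand, for Ppp1r3a, and chr19:36736605-36736854, minus strand, for Ppp1r3c.
Pgam2: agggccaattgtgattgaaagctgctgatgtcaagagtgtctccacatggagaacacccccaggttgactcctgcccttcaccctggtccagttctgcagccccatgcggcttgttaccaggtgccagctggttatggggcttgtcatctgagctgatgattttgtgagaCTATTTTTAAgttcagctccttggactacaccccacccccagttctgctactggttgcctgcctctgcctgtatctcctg
Pgam1: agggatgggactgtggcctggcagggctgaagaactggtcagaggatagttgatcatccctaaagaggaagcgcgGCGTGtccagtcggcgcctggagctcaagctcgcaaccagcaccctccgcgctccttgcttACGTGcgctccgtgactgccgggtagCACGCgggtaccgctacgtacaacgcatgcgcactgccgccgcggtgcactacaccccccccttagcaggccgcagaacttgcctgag
Ppp1r3a: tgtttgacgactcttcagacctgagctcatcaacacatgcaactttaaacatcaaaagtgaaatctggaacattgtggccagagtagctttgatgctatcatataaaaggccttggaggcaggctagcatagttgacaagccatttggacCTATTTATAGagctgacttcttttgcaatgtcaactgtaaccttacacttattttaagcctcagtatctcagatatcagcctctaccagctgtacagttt
Ppp1r3c: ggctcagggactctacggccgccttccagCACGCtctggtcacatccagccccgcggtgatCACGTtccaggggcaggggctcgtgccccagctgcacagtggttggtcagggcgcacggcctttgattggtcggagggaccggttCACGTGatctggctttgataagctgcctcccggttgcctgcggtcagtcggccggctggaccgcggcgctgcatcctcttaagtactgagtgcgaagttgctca
Pgam2 holds 1 MEF2 match, CTATTTTTAA, beginning 80 bases before the start, and Ppp1r3a holds 1, CTATTTATAG, beginning 100 bases before it. Neither window holds a hypoxia core. Pgam1 holds 3 hypoxia cores and Ppp1r3c 4, of which 2 overlap as CACGTG, and neither holds a MEF2 match. RefSeq windows were matched for 32 of the 35 members, with 43 windows in all, and Slc2a4, Slc2a3 and Gpd1 were not searched. A MEF2 match was present in 2 of these 43 (4.65%), both of them muscle forms, against 2.92% of all 32851 windows. A hypoxia core was present in 10 of 14 windows of muscle forms, in 13 of 14 windows of other forms, and in 38.6% of all windows. A match is a run of letters and does not show that a factor binds there.

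Glycogen is made from glucose phosphate by way of UDP-glucose. Pgm1, the main phosphoglucomutase, moves the phosphate between the ends of glucose and connects glycolysis with glycogen, and it read 9.61 in the labelled knockout pool and 10.14 in the wild type pool, a difference of -0.53. Pgm2, a relative that acts on pentose sugars as well, read 6.20 in the labelled knockout pool and 6.04 in the wild type pool. Ugp2, which makes UDP-glucose, read 7.71 in the labelled knockout pool and 8.04 in the wild type pool. The main phosphoglucomutase was thus lower, with 2.62% of all genes below it, and its relative was not.

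The enzymes that build the polymer did not differ alike. Gyg encodes glycogenin, the protein primer of the chain, and read 8.14 in the labelled knockout pool and 8.15 in the wild type pool, a difference of -0.01. Gys1, the glycogen synthase of muscle, read 8.95 in the labelled knockout pool and 9.39 in the wild type pool, a difference of -0.44. Gbe1, which adds the branches, read 7.02 in the labelled knockout pool and 7.45 in the wild type pool, a difference of -0.43. The synthase was 1.36-fold and the branching enzyme 1.34-fold lower, short of the 1.5-fold limit, while the primer was equal in the pools.

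Protein phosphatase 1 activates the synthase and is held on glycogen by targeting subunits. Ppp1r3a, the large subunit of striated muscle, read 7.68 in the labelled knockout pool and 8.23 in the wild type pool, 1.47-fold lower. Ppp1r3c, a subunit found in muscle, liver and fat, read 7.07 in the labelled knockout pool and 7.80 in the wild type pool, 1.66-fold lower. On the probe sets used, this was the only family of the 8 in which every classed form was lower. Ppp1r3c was the only lower gene among the 12 other forms, though Hk1 differed by -0.01 on its other probe set. Forms left out of the classes were not counted.

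Glycogen is broken down by phosphorylase. Pygm, the muscle form whose loss causes McArdle disease in humans, read 11.47 in the labelled knockout pool and 11.67 in the wild type pool, a difference of -0.19. Pygl, the liver form, which white blood cells use as well, read 6.54 in the labelled knockout pool and 5.95 in the wild type pool and was higher by 0.59, just at the 1.5-fold limit, which it misses after centring (0.56). The kinase that switches phosphorylase on had larger differences in its muscle subunits than phosphorylase itself. Phka1, the muscle regulatory alpha subunit, read 8.27 in the labelled knockout pool and 8.90 in the wild type pool, 1.55-fold lower. Phkg1, the muscle catalytic gamma subunit, read 7.17 in the labelled knockout pool and 7.83 in the wild type pool, 1.58-fold lower. Phkb, the beta subunit that muscle and liver share, read 8.16 in the labelled knockout pool and 8.36 in the wild type pool, a difference of -0.20. The liver partners of the alpha and gamma subunits, Phka2 and Phkg2, taken from the list of further pathway genes, differed by -0.09 and 0.14, so that in the kinase the muscle subunits were lower and the liver subunits differed by less than the robust SD of 0.28.

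**Figure D3:**
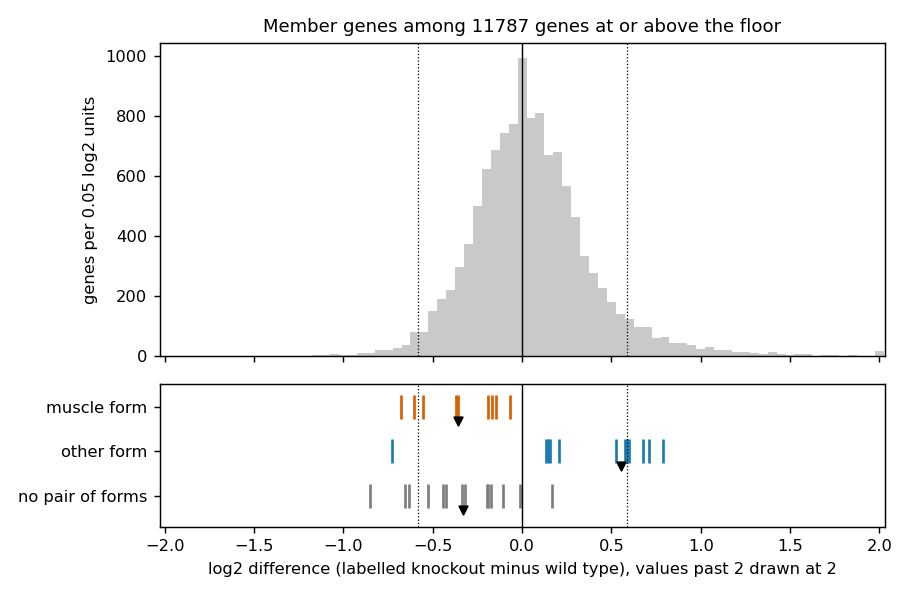
Upper panel: number of genes per 0.05 log2 units of difference, labelled knockout minus wild type, over the 11787 genes counted. Lower panel: each member as a tick by isoform class, with triangles at the class medians (-0.36 for muscle forms, 0.55 for other forms, -0.33 for members not classed as either, drawn as no pair of forms) and dotted lines at 1.5-fold. Some members not classed, such as Phka1 and Phkg1, do have a partner form in the further list.

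Signal strength and isoform class went together among the members. The 10 members with a mean signal of at least 10 had a median of -0.17, and none passed 1.5-fold in either direction, where 0.704% of all genes in that range were lower and 6.34% higher. The 15 members between 7 and 10 had a median of -0.44, with 5 at least 1.5-fold lower and Pgam1 higher, where 1.43% of all genes in that range were lower and 8.25% higher. The 10 members under 7 had a median of 0.55, with 4 at least 1.5-fold higher and Fbp2 lower, where 2.08% of all genes in that range were lower and 5.84% higher. All genes in the same 3 ranges of signal had medians of -0.02 (142 genes), 0.05 (2934 genes) and 0.02 (8711 genes). The part of signal strength in the isoform differences was not tested. These ranges were chosen after the values were seen.

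A further list of 64 genes covered other forms of these enzymes, lactate and pyruvate transport, glycogen regulators, the pyruvate dehydrogenase complex, the energy sensor AMPK and insulin signalling. Of these, 59 were found and 51 reached the floor, with a median of -0.09 over the 51. Only 2 were at least 1.5-fold lower (3.92%, against 1.90% of all genes) and 2 at least 1.5-fold higher (3.92%, against 6.45%). Slc16a3, which encodes MCT4, the lactate exporter of fast fibres, read 7.64 in the labelled knockout pool and 8.45 in the wild type pool, 1.75-fold lower. Slc2a12, a further glucose transporter of muscle and fat, read 5.17 in the labelled knockout pool and 5.79 in the wild type pool, 1.54-fold lower. On the higher side, Hif1a, the factor that drives glycolytic genes in low oxygen, read 8.20 in the labelled knockout pool and 7.34 in the wild type pool, 1.81-fold higher. Eno2, the enolase of neurons, read 5.15 in the labelled knockout pool and 4.56 in the wild type pool, 1.51-fold higher, a call that it loses after centring (0.57) and with the higher floor. Thus the exporter of lactate from fast fibres was lower, while its relative Slc16a1, which encodes the lactate carrier MCT1, differed by -0.08.

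Other energy pathways of the fibre were lower by small amounts. The lists used here were made without pairs of muscle and other forms, so no split of that kind could appear in them. Of 25 measured genes that serve the citric acid cycle or oxidise fatty acids, 24 were lower, where 44.5% of all genes were. Their median was -0.23, with a range from -0.48 to 0.03. None passed 1.5-fold, where 1.90% of all genes were lower and 6.45% higher. In 25 genes, having no lower call is near that share. The 20 fibre markers, which encode contractile and calcium release proteins, ranged from -0.62 to -0.04. Beside these lists, the 9 muscle forms of all families, the transporter and glycogen genes among them, had a median of -0.36. The 9 glycogen genes not classed as muscle or other form had a median of -0.43. These differences between lists were not tested.

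**Figure D4:**
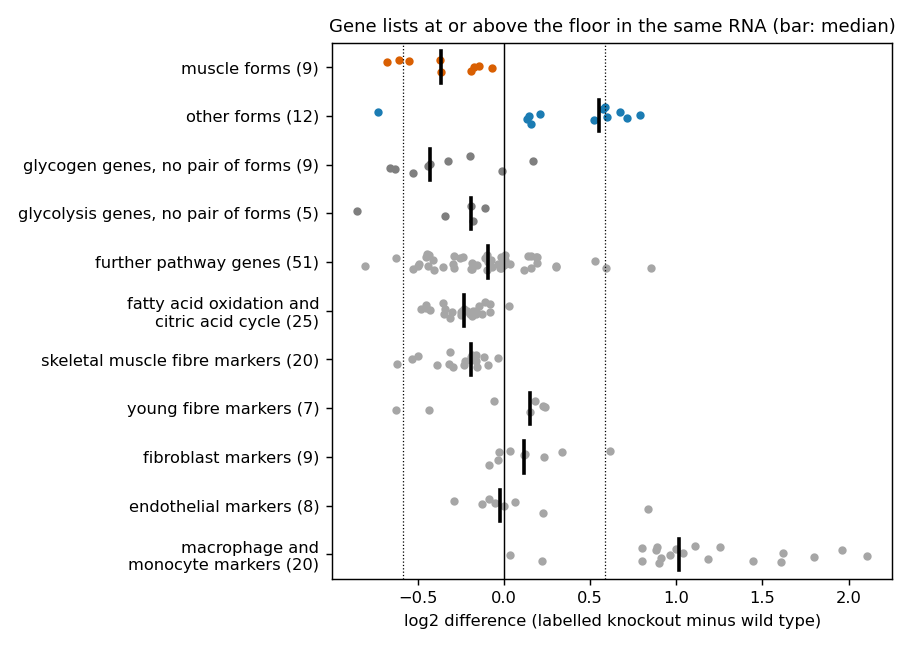
Log2 difference, labelled knockout minus wild type, of each gene at or above the floor in 4 classes of member genes and 7 other lists, with the number of genes in brackets, black bars at the medians and dotted lines at 1.5-fold. Medians were -0.36 for muscle forms, 0.55 for other forms and -0.19 for skeletal muscle fibre markers. They were 1.02 for macrophage and monocyte markers, 0.15 for young fibre markers and 0.12 for fibroblast markers.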

How the data were processed

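Total RNA of 2 pools was hybridised to 1 array each. The deposited values are log2 signals per probe set. Per the submitters' processing notes, the authors made them by RMA with the program Affymetrix Expression Console, whose version is not given in the sources used here. RMA equalises the distribution of values between arrays, so a change shared by most genes cannot be seen. Depth does not apply to arrays, and their number limits the precision.

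Of 35557 probe sets, 21789 had 1 gene symbol in the platform annotation, 1621 several and 12147 none. The probe set with the highest mean stood for a gene. The floor is the median of all values. Differences (labelled knockout minus wild type) were counted past 1.5-fold, with Python 3.11.15, pandas 2.3.3, numpy 2.4.6 and statsmodels 0.14.6 (loess span 0.3). No test was possible with 1 array per genotype. The counting was tested on simulated data with planted changes larger than those of the members called here. False calls were not counted, so it does not bear on calls of their size.

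All members are named, as are further pathway genes past 1.5-fold. Muscle and other forms were assigned from textbook knowledge. Members and lists were chosen with earlier results of these data known.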

Additional observations from a re-analysis of the deposited data

How the results depend on the processing

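All values rest on 1 array per genotype, so the data hold no measure of how mice or arrays vary. No paired analysis was possible because each genotype has a single pool. The median of the members (-0.20 to -0.16), of the muscle forms (-0.39 to -0.34) and of the other forms (0.49 to 0.58) kept its direction under every alternative run: centring, loess trend removal, the mean of all probe sets, shared probe sets, other floors and, added after seeing the data, the other Hk1 probe set and the omission of Hk1 and Ldhb or, for the other forms (0.53), of Aldoc. Some of these runs could not move a median. All 35 members pass the floor, so leaving it out changes nothing, and each muscle form has 1 probe set. The sign of none of the 35 members turned under centring, loess or the mean of all probe sets, while Pfkl and Pygl lost and Ppp1r3a gained the 1.5-fold call. On its other probe set alone, Hk1 went from 0.15 to -0.01 and Ldhb from 0.14 to 0.00. Counts moved more. At 1.3-fold, 10 members and 11 further pathway genes were lower, and 7 members and 3 further genes were higher. At 2-fold 0 members and 0 further genes were lower or higher. The share of all genes past these limits was not counted, so these counts cannot be set against it. The 5 higher members became 3 with centring, 3 with loess and 3 when the floor was the 75th percentile. Of the 2 further genes on each side, 1 higher gene, Hif1a, was left with centring, which loses Eno2, and 1 lower and 1 higher gene with that floor.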

Other observations

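Further regulators of glucose use lay within 1.5-fold, and those given here were picked after their values were seen. Differences are log2 values, labelled knockout minus wild type. The 7 measured subunits of AMPK, the kinase that senses low energy, differed by -0.49 for Prkab2, -0.41 for Prkaa2, -0.10 for Prkag1, -0.07 for Prkag3, -0.03 for Prkab1, 0.16 for Prkaa1 and 0.30 for Prkag2. Of the 4 kinases that shut pyruvate dehydrogenase, Pdk4, which fasting induces in muscle, read 7.90 in the labelled knockout pool and 8.40 in the wild type pool, a difference of -0.50. Pdk2 differed by -0.29, Pdk1 by -0.23 and Pdk3 by 0.30. Gpd2, the mitochondrial partner of Gpd1 in the glycerol phosphate shuttle, and its relative Gpd1l differed by -0.44 and -0.53. In insulin signalling, the adaptor Irs1 differed by -0.45 and Tbc1d1, which restrains GLUT4 traffic, by -0.44, while the receptor Insr (0.01), Akt1 (0.16), Akt2 (-0.10), Tbc1d4 (-0.07) and Irs2 (0.19) differed by less than the robust SD of 0.28 over all genes.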
